A study of Mus musculus with 8 samples.

Results

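Cathepsins are the proteases of the lysosome, and 10 cathepsin genes were followed here in mouse belly skin: Ctsl, Ctsb, Ctsd, Ctsh, Ctsz, Ctsc, Ctsa, Ctsf, Ctss and Ctsk. They were taken by symbol, as the array probe sets annotated to exactly 1 of these names, from a list of genes put together with earlier results of these data known. This gave 22 probe sets for 10 of the 18193 gene symbols with a probe set of their own on the array. Of the 22 probe sets, 19 passed a filter on low signal and were tested, and each of the 10 genes had at least 1 of them.

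All animals were 8 months old. The transgenic group consisted of females 7 and 84 and males 11 and 17, which carried a transgene for human hurpin. The wildtype group consisted of males 26 and 28 and female 29, and RNA of female 29 was run on 2 arrays, which were averaged, so that 8 arrays stood for 7 animals. The strain, the promoter that drives the transgene and the number of founder lines are not given in the sources used here. Whole skin was measured, so fewer cells of a type and less RNA per cell cannot be told apart in any value below. The skin keratins Krt5 and Krt14 of the basal layer lay between 13.56 and 14.34 in every animal on the log2 scale used throughout, log2 of the intensity plus 21.8. Not all skin genes were as even. Bcam, of the same list of 9 basal keratinocyte markers, ran from 7.30 to 9.47. The mean over 19 hair shaft and inner root sheath keratins ran from 7.07 to 13.61. The sex given in the labels matched Xist, which lay between 12.84 and 13.16 in the females and between 6.81 and 7.10 in the males, and the Y-linked gene Eif2s3y, at 4.49 to 5.52 in the females and 11.32 to 11.44 in the males.

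Most cathepsins are made as inactive precursors, receive a mannose 6-phosphate tag in the Golgi, and become active when the propeptide is removed in the acid lumen of endosomes and lysosomes. By catalytic mechanism Ctsl, Ctsb, Ctsh, Ctsz, Ctsc, Ctsf, Ctss and Ctsk are cysteine proteases of the papain family and Ctsd is an aspartic protease. Ctsa is a serine carboxypeptidase that also protects other lysosomal enzymes, so it belongs to neither class. In skin, cathepsin L is known from mice that lack it, which lose their coat periodically and have a thickened epidermis. Hurpin, the product of SERPINB13, belongs to the clade B serpins and blocks cathepsin L.

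The transcription factor Tfeb and its relatives switch on many lysosomal genes by binding a motif built around CACGTG. That hexamer, which reads the same on both strands, was looked for in the RefSeq promoter windows of the GRCm38.p6 assembly (250 bases before to 50 after an annotated start). Windows were found for 8 of the 10 genes, with no entry for Ctsb and Ctsh. The hexamer occurred in windows of 4 genes, Ctsl, Ctsd, Ctsa and Ctsf, and in 7.15% of all 32851 windows of that length. The following stretches show where it lies, in capitals, before the start of Ctsd and Ctsf (250 bases each), around the second annotated start of Ctsa and upstream in the window of Ctsl (30 bases each). Among the leading probe sets, those of Ctsd, Ctsa and Ctsf, with the hexamer, and that of Ctsc, without it, were lower in every transgenic animal. So were 6.71% of all 27022 probe sets tested. The leading probe set of Ctsl, also with the hexamer, overlapped between the groups (difference -0.05). Ctsa has the hexamer only in the window of its second start. The values of Ctsd, Ctsa and Ctsf moved with RNA quality, as given below, and a link to the hexamer was not tested.
Ctsd, minus strand, chr7:142387828-142388077: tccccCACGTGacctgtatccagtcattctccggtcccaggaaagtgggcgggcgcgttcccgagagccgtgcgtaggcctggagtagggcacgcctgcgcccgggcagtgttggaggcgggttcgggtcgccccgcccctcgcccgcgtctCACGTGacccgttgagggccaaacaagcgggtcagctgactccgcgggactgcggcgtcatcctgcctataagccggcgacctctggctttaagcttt
Ctsf, plus strand, chr19:4854915-4855164: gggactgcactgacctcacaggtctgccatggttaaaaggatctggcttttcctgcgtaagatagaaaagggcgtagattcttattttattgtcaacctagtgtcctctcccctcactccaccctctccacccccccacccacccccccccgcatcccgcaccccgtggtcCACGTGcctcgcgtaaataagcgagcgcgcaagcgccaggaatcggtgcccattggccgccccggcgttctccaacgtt
Ctsa, plus strand, chr2:164833755-164833784: aactgtCACGTGatgcagatgctCACGTGa
Ctsl, minus strand, chr13:64370739-64370768: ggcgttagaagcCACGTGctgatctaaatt
The hexamer began 245 and 98 bases before the start of Ctsd, 79 bases before that of Ctsf and 236 bases before the start to which the Ctsl window belongs. That Ctsl start and the second one of Ctsa lie inside the annotated genes, so the stretches printed for both are within the gene and not upstream of it. In Ctsa the hexamer began 12 bases before the start and at base 6 counted from it. These are matches of letters, and binding was not measured.

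The comparison of transgenic with wildtype skin asks whether the genes of the target protease and of its relatives differ when a cathepsin L inhibitor is expressed. No cathepsin probe set passed the threshold (limma adjusted p under 0.05, 0 of 19, against 0.0148% of all 27022 probe sets tested, with 0.0074% higher and 0.0074% lower). Before adjustment, 5 of the 19 had p under 0.05 and were lower in transgenic skin (7.93% of all probe sets) and 0 were higher (3.77% of all). In 6 of the 19 every transgenic animal lay below every wildtype animal (6.71% of all), and in 0 every transgenic animal lay above (4.58% of all). The difference, transgenic minus wildtype, was below 0 in 12 of the 19 (49.8% of all), and its median was -0.14 over the 19 and 0.0012 over all probe sets tested. Several probe sets share a gene, so the 19 are not separate observations.

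Ctsl (gene chr13:64361890-64370772), which encodes the lysosomal endopeptidase that hurpin blocks, did not pass between the groups. Its leading probe set measured 14.51, 13.89, 14.02 and 14.22 in transgenic 7, 11, 17 and 84, against 14.02, 14.34 and 14.27 in wildtype 26, 28 and 29. The groups overlapped, and both the lowest and the highest animal were transgenic. The difference was -0.05 (SE 0.163, 95% confidence interval -0.42 to 0.32, limma adjusted p = 0.927). With the Gapdh ratio described below in the model it was -0.39 (SE 0.202, unadjusted p = 0.0924), and it was -0.19 after cyclic loess normalization. Without transgenic 7 and 84, the transgenic females, it was -0.25. The arrays of wildtype 29 differed from each other by 0.152 in this probe set. A second Ctsl probe set fell below the filter and was not tested; it read between 4.80 and 7.31, near the floor of the scale at 4.45, with transgenic 11, wildtype 28 and wildtype 29 lowest.

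**Figure D1:**
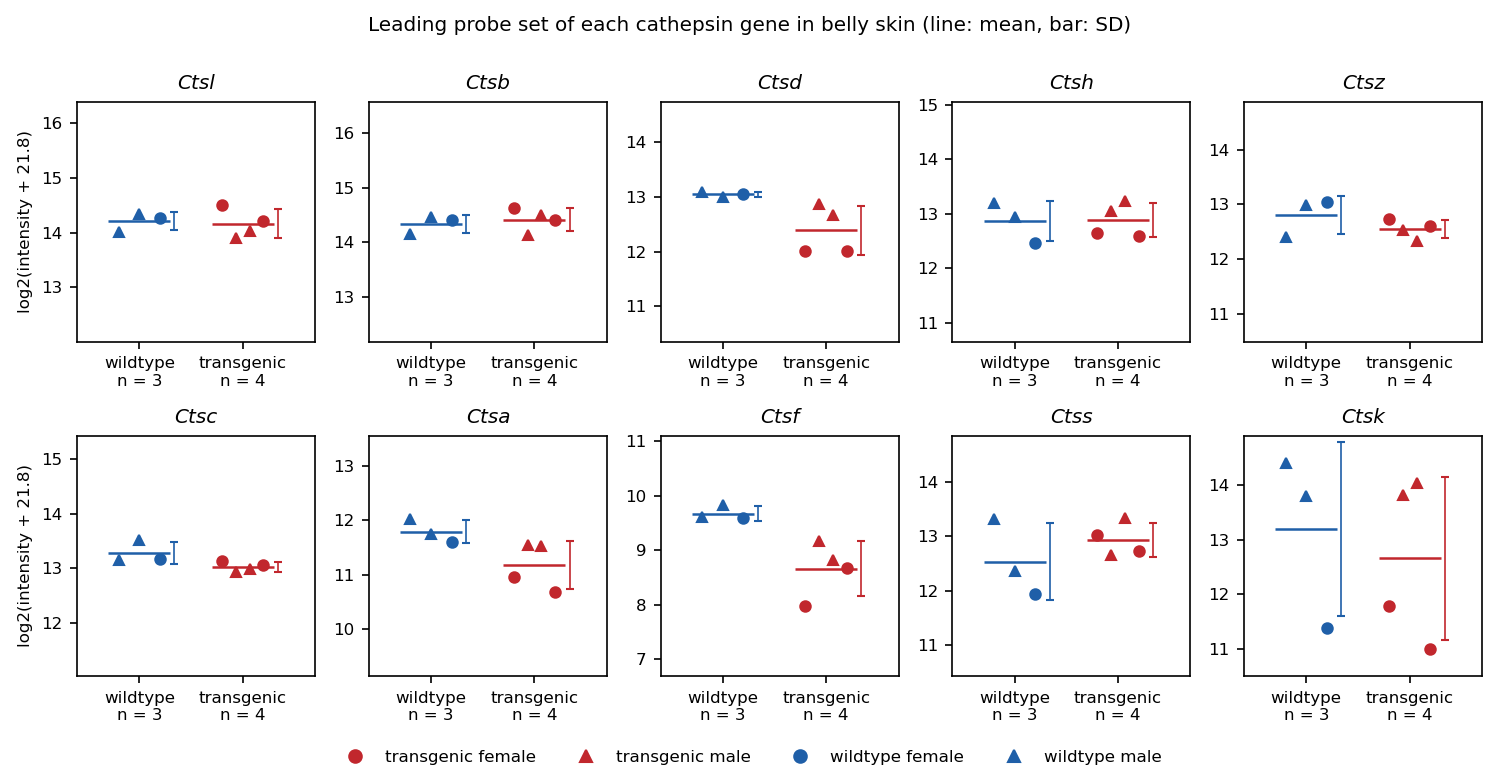
Each panel shows 1 cathepsin gene by its most abundant probe set, as log2 of intensity plus 21.8 on axes of equal span; points are animals (circles female, triangles male), lines are group means and bars are the SD (n = 3 wildtype, n = 4 transgenic). Ctsl sits between 13.89 and 14.51 in all 7 animals, Ctsd, Ctsa, Ctsf and, by a small gap, Ctsc are lower in each transgenic animal, and Ctsk splits by sex, at 11.01 to 11.79 in females and 13.80 to 14.41 in males.

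Among the relatives of Ctsl that cut inside proteins, Ctsb (gene chr14:63122462-63145923), an abundant endopeptidase and carboxydipeptidase, gave different answers from different probe sets. The leading one measured between 14.12 and 14.63 in all animals, with a difference of 0.08 (95% confidence interval -0.25 to 0.41). Another, 1448732_at, measured 12.93, 13.35, 13.13 and 12.55 in transgenic 7, 11, 17 and 84 and 13.56, 13.89 and 13.86 in wildtype 26, 28 and 29. Every transgenic value was below every wildtype value there, and females 7 and 84 were the lowest. Its difference was -0.78 (SE 0.194, unadjusted p = 0.00324, limma adjusted p = 0.301). The other probe sets above the filter gave 0.07 and 0.36. All 4 carry the same transcript accession in the array annotation, and 1 of the 4 was lower in every transgenic animal. The last probe set of Ctsb fell below the filter and was not tested.

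Ctsf (gene chr19:4855165-4860918), a papain family protease with a long propeptide, had the largest difference of the leading probe sets. It measured 7.97, 9.17, 8.82 and 8.67 in transgenic 7, 11, 17 and 84 and 9.61, 9.82 and 9.58 in wildtype 26, 28 and 29. All transgenic animals were below all wildtype animals, and transgenic 7 was lowest. The difference was -1.01 (SE 0.269, 95% confidence interval -1.62 to -0.40, limma adjusted p = 0.301). A second Ctsf probe set fell below the filter and was not tested. It read between 4.86 and 6.45 with overlap between the groups, and the arrays of wildtype 29 differed by 1.29 in it.

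Ctsd (gene chr7:142375910-142387827), the main aspartic protease of lysosomes, measured 12.01, 12.88, 12.67 and 12.003 in transgenic 7, 11, 17 and 84. Wildtype 26, 28 and 29 stood close together at 13.09, 13.00 and 13.06. The transgenic females were lowest, and transgenic 11, the highest, was nearest to the wildtype animals. The difference was -0.66 (SE 0.226, 95% confidence interval -1.17 to -0.14, limma adjusted p = 0.353).

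Ctsa (gene chr2:164832872-164841032), the serine carboxypeptidase, had a leading probe set that was also lowest in the transgenic females. It measured 10.96, 11.55, 11.54 and 10.68 in transgenic 7, 11, 17 and 84, and 12.02, 11.74 and 11.61 in wildtype 26, 28 and 29. Its difference was -0.61 (SE 0.237, limma adjusted p = 0.393), while its other probe set gave 0.65 (SE 0.341, limma adjusted p = 0.491). Its probe sets thus differed in sign. The other one read only between 6.12 and 7.56, near the filter at 6.45, and the arrays of wildtype 29 differed by 0.496 in it.

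**Figure D2:**
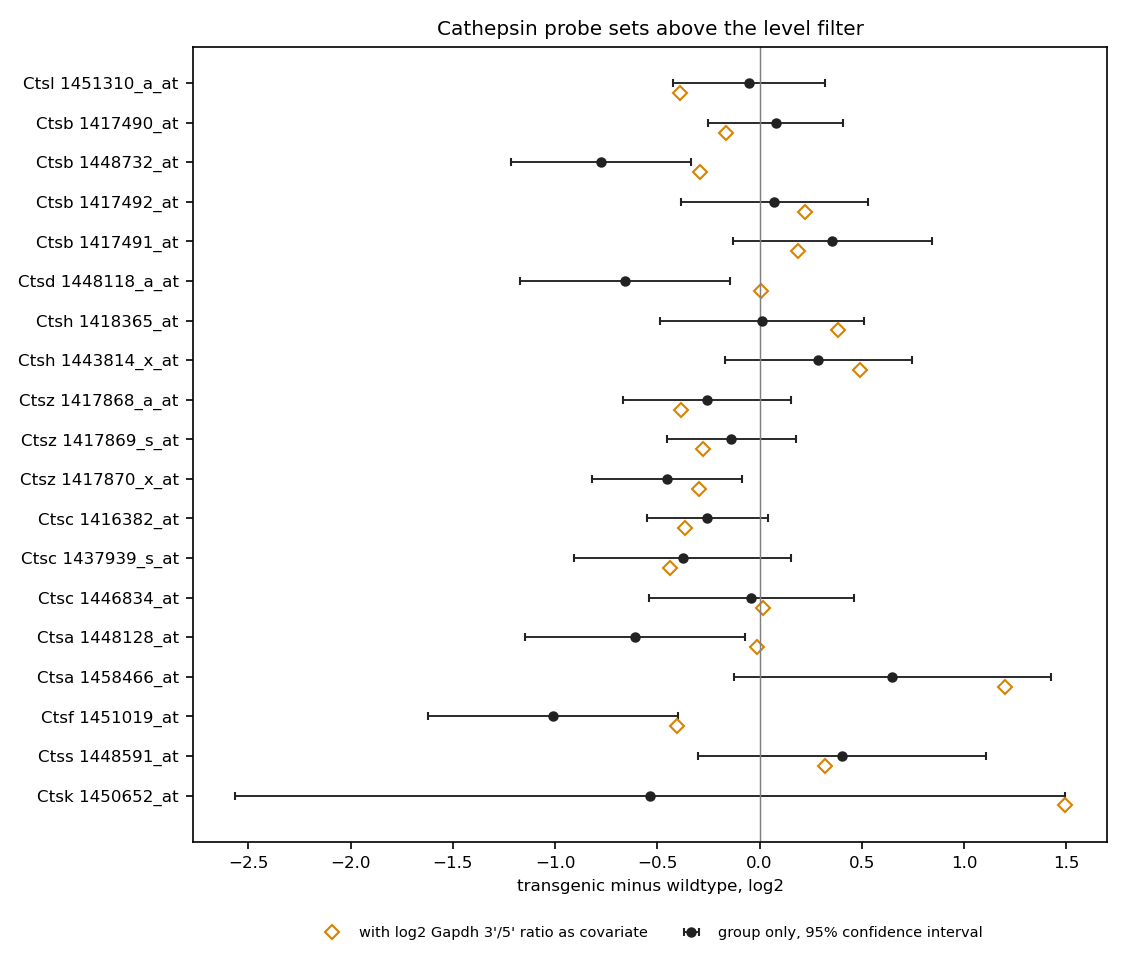
Black points are transgenic minus wildtype differences in log2 for the 19 cathepsin probe sets above the filter, with 95% confidence intervals (7 animals); open diamonds are the same differences with the log2 Gapdh 3'/5' ratio as a covariate. With the covariate Ctsd moves from -0.66 to 0.01 and Ctsa 1448128_at from -0.61 to -0.01. Others move away from 0, such as Ctsl from -0.05 to -0.39 and Ctsk from -0.54 to 1.495.

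The lower values of Ctsb 1448732_at, Ctsd, Ctsa 1448128_at and Ctsf moved with RNA quality as read from the array controls. The Gapdh control probe sets at the 3' and 5' ends of the transcript give a ratio that is high where labelled RNA does not reach the 5' end. It was 13.8, 1.45, 4.68 and 17.2 for transgenic 7, 11, 17 and 84, and 0.927 to 1.41 on the wildtype arrays. In each of the 4 probe sets transgenic 7 and 84 were the lowest animals and transgenic 11 the highest transgenic one. With the log2 ratio as a covariate the differences were -0.29 for Ctsb 1448732_at, 0.01 for Ctsd, -0.01 for Ctsa and -0.40 for Ctsf. Without transgenic 7 and 84 they were -0.53, -0.28, -0.25 and -0.67, still below 0. Transgenic 7 and 84 were the only transgenic females, so this leaves only males among the transgenic animals. The ratio was higher in each transgenic animal than in each wildtype animal, so group and ratio are partly confounded. Within the transgenic group it was higher in each female than in each male, so ratio and sex cannot be told apart there.

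**Figure D3:**
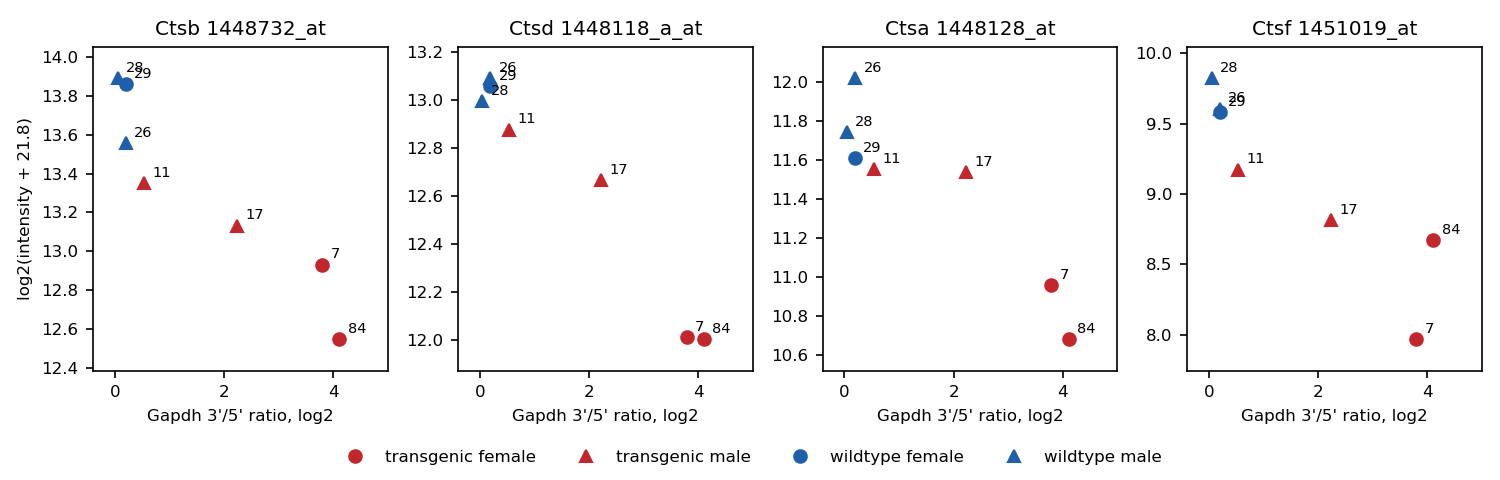
Each panel plots the log2 value of 1 probe set against the log2 Gapdh 3'/5' ratio for 7 animals (red transgenic, blue wildtype, circles female, triangles male, numbers are animals). The wildtype animals sit at the left with the highest values, and transgenic 7 and 84, with ratios of 13.8 and 17.2, sit at the right with the lowest.

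Ctsc, Ctsz and Ctsh trim residues from protein ends, as Ctsa does, and had differences between -0.45 and 0.29, none of which passed. Ctsc (gene chr7:88278024-88315861), the dipeptidyl peptidase that activates granule proteases of mast cells and neutrophils, measured 13.14, 12.94, 12.98 and 13.06 in transgenic 7, 11, 17 and 84 and 13.16, 13.52 and 13.18 in wildtype 26, 28 and 29. The groups did not overlap, but transgenic 7 lay only just below wildtype 26, and the difference was -0.26 (95% confidence interval -0.55 to 0.04, limma adjusted p = 0.478). Its other probe sets gave -0.38 and -0.04, and in the first of these the arrays of wildtype 29 alone differed by 0.754. Ctsz (gene chr2:174427494-174439039), a carboxypeptidase, gave -0.26, -0.14 and -0.45 from its probe sets. Only the last, whose name ends in x because its probes may bind other transcripts, had no overlap between groups (limma adjusted p = 0.363). With the Gapdh ratio in the model it gave -0.30, and Ctsc in its leading probe set gave -0.36.

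Ctsh (gene chr9:90054267-90076095), an aminopeptidase, gave 0.01 (95% confidence interval -0.49 to 0.51) and 0.29 (-0.17 to 0.75). Its leading probe set measured 12.64, 13.04, 13.24 and 12.60 in transgenic 7, 11, 17 and 84 and 13.19, 12.94 and 12.47 in wildtype 26, 28 and 29. The high and low animals were spread over both groups, and the 3 low ones were the 3 females.

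Ctss (gene chr3:95526786-95556405) is the protease with which antigen-presenting cells trim the invariant chain of MHC class II. It measured 13.02, 12.65, 13.34 and 12.74 in transgenic 7, 11, 17 and 84, and 13.31, 12.35 and 11.93 in wildtype 26, 28 and 29. The difference was 0.40 (95% confidence interval -0.30 to 1.11, limma adjusted p = 0.634). Transgenic 17 and wildtype 26 were the highest and wildtype 29 the lowest animal. The same 3 animals stood at the ends of the mean over 12 macrophage markers, at 11.27 in transgenic 17, 11.60 in wildtype 26 and 10.45 in wildtype 29. That mean ranged from 10.62 to 11.27 in transgenic and from 10.45 to 11.60 in wildtype animals, all 12 markers were above the filter, and their part in the Ctss values was not tested. The order was not particular to macrophages. The same animals stood at the ends of the dendritic and Langerhans cell, fibroblast, suprabasal keratinocyte and endothelial cell means. For fibroblasts these were 13.97 in transgenic 17, 14.00 in wildtype 26 and 13.30 in wildtype 29.

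Ctsk (gene chr3:95499210-95509387) encodes the collagen-degrading cathepsin of osteoclasts, which fibroblasts also make, and it varied most of the 10 genes, with an SD of 1.43 over the 7 animals in its leading and only probe set. It measured 11.79, 13.81, 14.04 and 11.01 in transgenic 7, 11, 17 and 84 and 14.41, 13.80 and 11.39 in wildtype 26, 28 and 29. The groups overlapped widely, with a difference of -0.54 (95% confidence interval -2.57 to 1.49, limma adjusted p = 0.844), which was -0.10 with sex as a covariate. It turned to 1.495 when the Gapdh ratio was added to the model and to 0.73 without transgenic 7 and 84, which leaves only males among the transgenic animals. The spread lay between the sexes: the 4 males were at 13.80 to 14.41 and the 3 females at 11.01 to 11.79.

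The sexes were compared with group in the model, a comparison chosen after the Ctsk values had been seen. Ctsk was lower in females by a difference of -2.60 (SE 0.222, 95% confidence interval -3.12 to -2.09, limma adjusted p = 0.00407), a level 6.08-fold higher in males on the same scale. The means were 11.39 ± 0.39 (SD, n = 3) in females and 14.01 ± 0.28 (SD, n = 4) in males. It was the only one of the 19 cathepsin probe sets to pass (0.226% of all probe sets, 61 of 27022, with 0.207% lower and 0.0185% higher in females). At an unadjusted p under 0.05, 5 of the 19 were lower in females (7.28% of all) and 0 higher (3.57% of all). The split was present in both groups, at -2.53 for females minus males among transgenic and -2.72 among wildtype animals, and the difference between these was 0.19 (95% confidence interval -0.94 to 1.31). The wildtype group held 1 female, and the 2 transgenic females had the highest Gapdh ratios. Wildtype 29, with ratios of 1.41 and 0.927 on its arrays, had a Ctsk level of 11.39, between theirs. The call was lost without wildtype 29 (difference -2.53, limma adjusted p = 0.0571), without transgenic 7 and 84 together (-2.72, limma adjusted p = 0.2004) and when the Gapdh ratio was added to the model (-2.72, limma adjusted p = 0.0833). Over the 20 alternatives the difference ran from -2.82 to -2.37 and the limma adjusted p from 0.00212 to 0.2004.

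**Figure D4:**
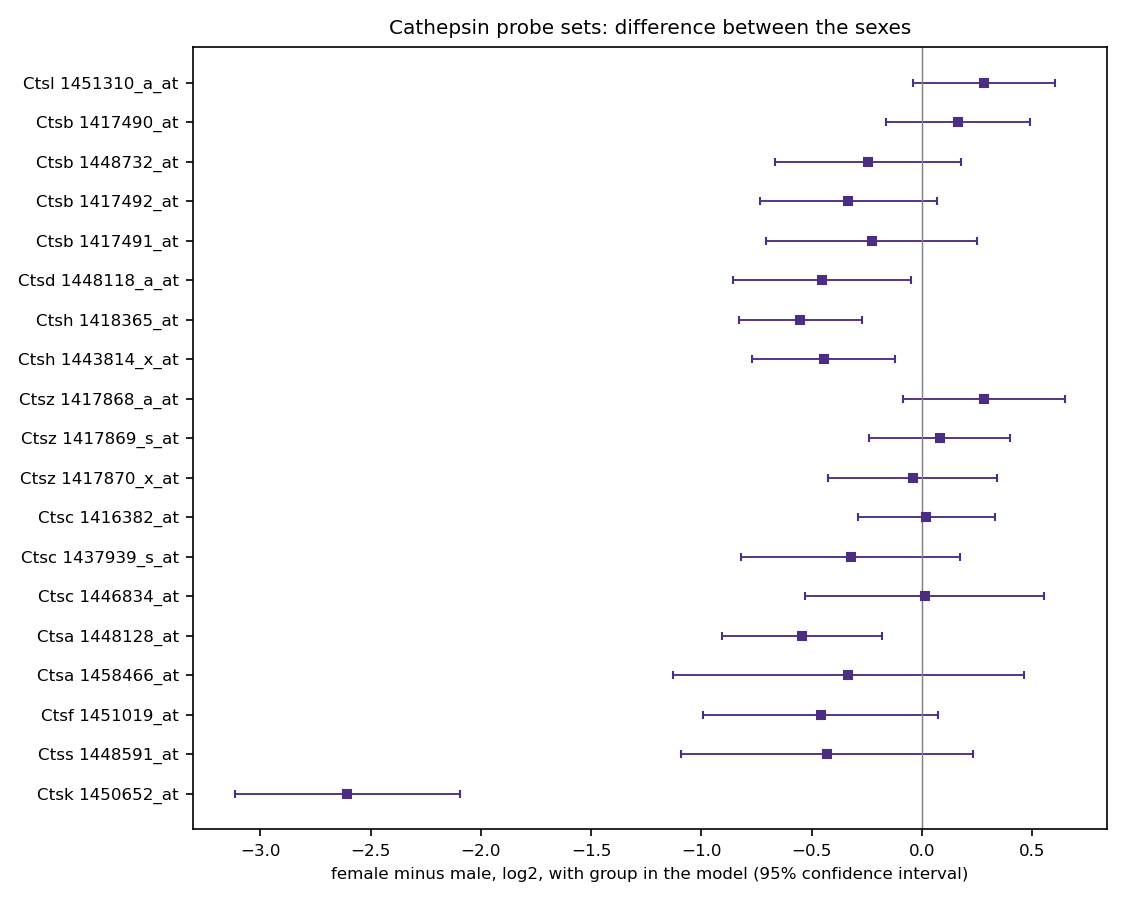
Squares are female minus male differences in log2 for the 19 cathepsin probe sets, from a model with group and sex (3 females, 4 males), with 95% confidence intervals. Ctsk stands at -2.60, and the other 18 lie between -0.55 and 0.28.

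The other cathepsins differed less between the sexes, and none of them passed. Ctsh was lower in each female than in each male in its leading probe set, 12.57 ± 0.09 (SD, n = 3) against 13.10 ± 0.14 (SD, n = 4), with a difference of -0.55 (95% confidence interval -0.83 to -0.27, limma adjusted p = 0.197). Its other probe set gave -0.45, with overlap. Sexes failed to overlap, with females lower, in 2 of the 19 probe sets, those of Ctsk and Ctsh, against 5.66% of all probe sets. Ctss gave -0.43 (95% confidence interval -1.09 to 0.23), although it lies next to Ctsk, with 17398 bases between the ends of the genes. Ctsl gave 0.28 (-0.04 to 0.60). For Ctsd and Ctsa 1448128_at the differences were -0.45 and -0.54, made up of -0.76 and -0.73 among transgenic animals, whose females had high Gapdh ratios, and 0.01 and -0.27 among wildtype animals.

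A difference between the groups in their sex effect was not found for any cathepsin (limma adjusted p under 0.05 for the interaction in 0 of 19 and in 0% of all 27022 probe sets, and unadjusted p under 0.05 in 1 of 19 and in 2.86% of all). The 1 was Ctsd, at -0.76 for females minus males in transgenic and 0.01 in wildtype animals (interaction -0.78, 95% confidence interval -1.36 to -0.20, unadjusted p = 0.0153, limma adjusted p = 0.9998).

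Genes with the profile most like that of Ctsk were found by the root mean square difference between centred log2 profiles over the 7 animals, among 2127 probe sets with a single gene symbol and at least 0.5 times its SD. The nearest 5 were Uty (0.152), Aldh1l2 (0.248), Aspn (0.259), Lox (0.261) and Pctp (0.293). Uty is Y-linked. Aspn encodes asporin, a small proteoglycan of collagen matrix, and Lox encodes lysyl oxidase, which cross-links collagen and elastin. Aspn measured 10.26 ± 0.34 in females and 12.49 ± 0.28 in males (SD, n = 3 and 4), and Lox measured 8.83 ± 0.13 and 11.35 ± 0.41. Because the genes were chosen for likeness to Ctsk, these values describe the choice.

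Of the fibroblast markers, 1 passed between the sexes, as did 0.226% of all probe sets tested. Col1a1, a chain of type I collagen, measured 13.78 ± 0.13 in females and 15.00 ± 0.10 in males (SD, n = 3 and 4; difference -1.22, SE 0.118, limma adjusted p = 0.00735), out of 9 measured. The limma adjusted p of Col1a1 was 0.0545 without transgenic 17, 0.0736 without transgenic 84 and 0.0571 without wildtype 29, with differences of -1.26, -1.26 and -1.08. It was 0.0715 with the Gapdh ratio in the model, 0.264 without transgenic 7 and 84 and 0.0826 without a variance trend, so that 6 of 20 alternatives lost the call. Col1a2, the other chain, gave -0.56 and Col3a1 gave -0.42. The median over the 9 markers was -0.42, and 7 of 9 lay below 0. The mean over the list ran from 13.30 to 13.72 in females and from 13.73 to 14.00 in males. Lower values in females were not particular to fibroblasts. The median was -0.66 for sebocyte, -0.57 for macrophage, -0.49 for neutrophil and -0.42 for T cell markers, and -0.05 over all probe sets tested. Of the cell type lists only the hair keratins had a median above 0, at 2.70. The macrophage, sebocyte and endothelial cell means were also lower in each female than in each male. The part of fibroblast number in the Ctsk values was not tested.

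**Figure D5:**
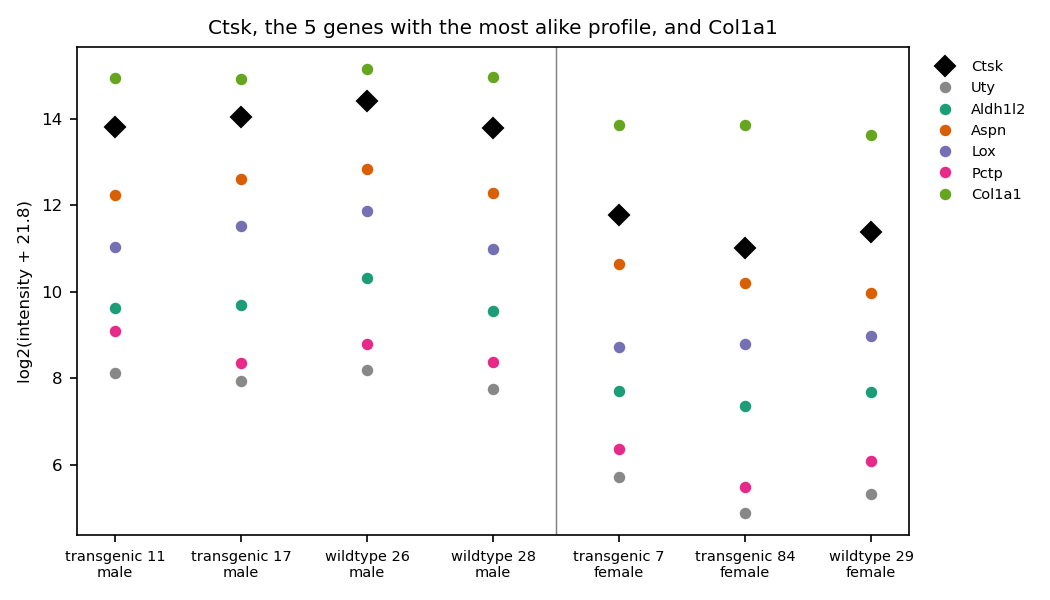
Points are log2 values by animal, the 4 males on the left of the line and the 3 females on the right, for Ctsk (black diamonds), the 5 genes with the nearest profile, and Col1a1. Ctsk lies at 13.80 to 14.41 in the males and 11.01 to 11.79 in the females, in both the transgenic and the wildtype group.

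The upstream sequence of Ctsk is shown because Ctsk was the one cathepsin that passed a test, with the sex of the animal. Capitals mark the hexamer TGTTCT, the half-site of the element shared by androgen and glucocorticoid receptors, searched together with its reverse complement AGAACA.
Ctsk, plus strand, chr3:95498960-95499209: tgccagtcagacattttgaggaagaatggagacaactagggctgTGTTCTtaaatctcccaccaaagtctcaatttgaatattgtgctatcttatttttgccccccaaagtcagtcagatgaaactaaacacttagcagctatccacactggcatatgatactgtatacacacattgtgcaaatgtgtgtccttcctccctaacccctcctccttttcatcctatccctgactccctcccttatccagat
The hexamer began 206 bases before the start. One or both forms occurred in 19.0% of all 32851 windows and in those of 4 of the 8 cathepsin genes with a window, Ctsc, Ctsa, Ctss and Ctsk. Of these, Ctsc, Ctsa and Ctss were not called between the sexes. Ctss has 2 matches, at positions -148 and -42 from the start, and Ctsc has 1 at -37. These are matches of letters, binding was not measured, and a link to sex was not tested.

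Ctsl followed another order of animals. The 3 animals with the lowest Ctsl, transgenic 11 and 17 and wildtype 26, were also the 3 with the lowest mean over 19 hair shaft and inner root sheath keratins, at 12.30, 9.57 and 7.07 against 12.95 to 13.61 in the other 4. Their order differed, as transgenic 11 was the lowest in Ctsl. The leading probe set of Ctsz was lowest in the same 3 animals, at 12.53, 12.33 and 12.40, so this was not particular to Ctsl. All 3 were male. The remaining male, wildtype 28, had 13.50 for hair keratins and 14.34 for Ctsl, among the higher animals in both. When the hair keratin mean was added to the model, Ctsl differed by -0.081 between transgenic and wildtype, and by -0.096 when sex was added. A link of Ctsl to hair content was not tested, and it was not told apart from sex. The genes with the nearest profile to Ctsl among 22796 probe sets were Ndufc1 (root mean square difference 0.0543), Abcf3 (0.0573), Trip12 (0.0616), Cnn3 (0.0624) and Aktip (0.0636). The SD of Ctsl over the animals was 0.214.

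Around the cathepsins, genes that carry, activate or block them did not pass the test between groups. Of 30 genes for sorting to and function of lysosomes, all above the filter, 0 were called in either direction (0.0148% of all probe sets tested). Of the 30, 12 lay above and 18 below 0 (49.8% of all below 0), with a median of -0.06. Lowest were Npc1, a cholesterol transporter of the lysosome membrane, at -0.54 (limma adjusted p = 0.340) and Gga1, an adaptor for mannose 6-phosphate receptors, at -0.44. Highest were Glb1, the beta-galactosidase that Ctsa protects, at 0.24, and Lamp1, a membrane protein of lysosomes, at 0.19. The mannose 6-phosphate receptors M6pr and Igf2r, which deliver the precursors, gave 0.09 and 0.12, and Lgmn, the asparaginyl endopeptidase that processes cathepsins, gave -0.29.

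Of 25 cystatins, stefins and related genes, not all of them known to block cathepsins, 17 had a probe set of their own. Of these, 10 were above the filter, with 0 called and a median of -0.01. Stfa3 and Fetub were highest at 0.77 and 0.41, and Stfa2l1 and Cst3, the gene of the secreted inhibitor cystatin C, were lowest at -0.40 and -0.17. Of 15 other genes named as cathepsins or close to them, 4 were above the filter, Ctse, Ctso, Ctsw and Tinagl1, at 0.07, 0.24, -0.15 and 0.16, with 0 called. For these lists the limma count at an unadjusted p under 0.05 was 1 of 30 for the lysosomal genes, which was Npc1, and 0 of 10 and 0 of 4 for the others. Over all probe sets tested, 7.93% were lower and 3.77% higher at that threshold.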

How the data were processed

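Belly skin RNA of 7 mice was measured on 8 arrays. Intensity values per probe set, on a linear scale, were deposited by the authors after MAS5, per the submitters' processing notes (version not given in the sources used here). In the deposited table the mean without the lowest and highest 2% of values was 500.003 on each array, and intensities summed to 34785081 to 37857733. The number of arrays limits precision. To each intensity 21.8 (the 20th percentile of the table) was added before log2 was taken, arrays were not normalized again, and the arrays of wildtype 29 were averaged. Of 45037 probe sets that are not controls, those with a mean under the 40th percentile (6.45) were left out, which left 27022. Symbols come from the array annotation; all 10 genes matched RefSeq by gene identifier. The group test was limma 3.58.1, run in R 4.3.3 (group only, empirical Bayes with trend, 2-sided, Benjamini-Hochberg adjustment over all tested probe sets). The interaction was tested with group, sex and their product. P-values rest on the spread between these animals, which the empirical Bayes step draws towards that of other probe sets. With 1 wildtype female, they hold no spread among wildtype females. On simulated data limma recovered 0% of 200 probe sets shifted by 1, 69.5% by 2 and 91% by 3 among 27022. All probe sets of the 10 genes are reported, led by the most abundant, though not each by its number. From the other pathway lists the 2 highest and 2 lowest genes are named. M6pr, Igf2r, Lgmn and others were named outside that rule after their values were seen. The members and lists were chosen with earlier results of these data known. The alternatives were 21 settings of normalization, pseudocount, filter, variance model, covariates and animals. Summaries used Python 3.11.15, numpy 2.4.6 and pandas 2.3.3, and figures used matplotlib 3.10.9.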

Additional observations from a re-analysis of the deposited data

Results flagged for a closer look

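One cathepsin value stood apart within its group. In the Ctsz probe set 1417869_s_at transgenic 11 measured 10.55, against 10.75 to 10.77 in the other transgenic animals, a gap that takes up most of the range of the 4. Among 22 probe sets looked at in this way, about 1 in 20 would stand out by chance, and the gap was small on the log2 scale.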

How the results depend on the processing

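No cathepsin probe set was called between transgenic and wildtype skin under any of the 21 alternatives, none for the interaction under the 18 that could be fitted, and no gene of the pathway lists under the 21. The sex comparison called 1 cathepsin probe set, Ctsk, and 0 when the Gapdh ratio was added to the model, 0 without transgenic 7 and 84, and 0 to 1 with single animals left out. The sign of group differences turned in places, including those of Ctsd and Ctsk, and the cause was not tested. With single animals left out, the difference ran from -0.17 to 0.040 for Ctsl, -0.018 to 0.17 for Ctsb 1417490_at, -0.061 to 0.22 for Ctsb 1417492_at, -0.19 to 0.17 for Ctsh 1418365_at, -0.15 to 0.085 for Ctsc 1446834_at and -1.44 to 0.070 for Ctsk. Ctsb 1417490_at was -0.069 after cyclic loess, -0.17 with the Gapdh ratio in the model and -0.024 without transgenic 7 and 84. With the Gapdh ratio Ctsd was 0.0059, Ctsc 1446834_at 0.016 and Ctsk 1.495. Ctsk was 0.73 without transgenic 7 and 84, which leaves transgenic males only. After quantile and cyclic loess normalization Ctsh 1418365_at was -0.034 and -0.083 and Ctsc 1446834_at 0.063 and 0.051. With only the first array of wildtype 29 Ctsh 1418365_at was -0.018. For the sexes, Ctsd was 0.014 without transgenic 7 and 84, and Ctss was 0.023 when the hair keratin mean was added. No paired analysis was possible because the animals carry no shared numbers. Probe sets near the floor of 4.45 limit what can be read of the Ctsl, Ctsb and Ctsf probe sets below the filter.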

Other observations

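Ctse, the aspartic cathepsin E, was outside the 10 genes followed and showed the widest range of the cathepsin family genes above the filter. It measured 12.40, 11.15, 8.51 and 12.12 in transgenic 7, 11, 17 and 84 and 7.65, 12.48 and 12.81 in wildtype 26, 28 and 29. Ordered by Ctse the 7 animals stood in the same order as by the mean of the hair shaft and inner root sheath keratins, from wildtype 26 at 7.07 through transgenic 17 at 9.57 to wildtype 29 at 13.61. A link of Ctse to hair content was not tested. The groups overlapped, with means of 11.04 ± 1.77 in transgenic (SD, n = 4) and 10.98 ± 2.89 in wildtype skin (SD, n = 3).

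Ctla2a, whose product resembles a cathepsin propeptide and inhibits cathepsin L, was the one gene of the list of cystatins, stefins and related genes that passed between the sexes. Of all probe sets tested, 0.226% passed. Ctla2a measured 10.78 ± 0.43 in females (SD, n = 3) and 12.65 ± 0.47 in males (SD, n = 4), with a difference of -1.92 (SE 0.270, limma adjusted p = 0.0410) in the model with group, lower in 3 of 3 females. The difference ran from -2.36 to -1.48 over 20 alternatives, and 9 of them lost the call. Among these, the limma adjusted p was 0.203 without transgenic 7, 0.0591 without transgenic 11, 0.246 without transgenic 17, 0.158 without transgenic 84 and 0.198 without wildtype 29. With the Gapdh ratio in the model it was 0.148. The call was also lost without transgenic 7 and 84, the females with Gapdh ratios of 13.8 and 17.2, where the difference was -2.26. Between transgenic and wildtype skin Ctla2a gave 0.04. The sex comparison was chosen after the Ctsk values had been seen.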
